A study of Mus musculus with 8 samples.

Results

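The genes described here are 35 genes that splenic dendritic cells (DCs) are known to switch on as they mature, outside the costimulatory molecules, the chemokines and the NF-κB pathway. They were chosen by name, with earlier results of these data known. The shares of all probe sets set beside their counts therefore describe the list and do not test it. Each gene was read from the probe set given to its symbol alone by the array annotation, taking the highest mean over the arrays. Of the 35 genes, 33 had such a probe set, 1 each, among 22180 genes with a symbol of their own on the array, and all 33 also had values on the LPS and Control arrays. *Il4i1*, which encodes an enzyme that oxidizes amino acids, had only a probe set shared with *Nup62*, and *Cacnb3*, which encodes a calcium channel subunit, had none, so no value is given to either gene.

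DCs at rest take up antigen in tissue. On sensing microbial products such as lipopolysaccharide (LPS), and also at a low rate without infection, they mature: they rebuild their actin cytoskeleton to form dendrites and migrate, change their surface and endosomal membranes, and become resistant to the proteases of the T cells they meet. Lkb1, encoded by *Stk11*, is a kinase that activates AMPK and its relatives and is best known for its role in metabolism and cell polarity.

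RNA from spleen DCs of mice aged 8 weeks was measured on 8 Affymetrix Mouse Gene 2.0 ST arrays. They were 3 arrays of Cd11cCreLkb1f/f mice (KO, Lkb1-deficient DCs), 3 of Lkb1f/f mice (WT DCs), 1 of wild type C57BL/6 mice given LPS overnight and 1 of wild type C57BL/6 mice without LPS (Control). KO and WT mice both carry the floxed *Lkb1* alleles, and the KO mice also carry Cre under the *Cd11c* promoter, which is active in DCs and in other cells that make CD11c, such as some macrophages. A figure legend gives the mice of the LPS experiment as Lkb1f/f, whereas the labels give them as wild type. Nothing in the labels says that arrays of a group are separate mice, so p-values measure only the spread between these arrays, and the LPS comparison, with 1 array a side, has no replicate check. In such bulk samples, fewer cells of a type and less RNA per cell cannot be told apart.

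The deposited values are log2 signals, so a difference of 1 stands for 2-fold, and precision is limited by how few arrays there are. Array medians were 4.59, 4.07 and 3.35 in KO and 4.64, 4.09 and 3.40 in WT for replicate numbers 1, 2 and 3, and 4.14 on both the LPS and the Control array. The level thus went with the replicate number and not with the genotype, and differences between KO and WT are given within each number, here called a pair. The 6 DC markers with a probe set, among them *Itgax*, which encodes CD11c, averaged 9.03 to 10.50 on the KO arrays and 8.80 to 10.57 on the WT arrays, far above those medians. Markers of some other cells were above them too. Those of macrophages and monocytes averaged 8.25 to 9.34 in KO and 8.61 to 9.45 in WT. Those of B cells averaged 6.18 to 8.16 in KO and 6.77 to 8.44 in WT. Neutrophil markers varied widely between pairs, their average running from 4.38 to 7.85 in KO and from 3.85 to 8.06 in WT. *Stk11* itself was at 6.67, 6.41 and 5.55 in KO, against 6.73, 6.83 and 5.96 in WT (limma, adjusted p = 1, and 0.458 with the replicate block), and where its probes sit relative to the deleted exons is not stated in the sources used here.

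The first question was whether loss of Lkb1, without LPS, moved the maturation genes. Most of them were higher in Lkb1-deficient DCs. Among the 33 genes, 30 were higher in KO than in WT in all 3 pairs, against 13.3% of all probe sets, and 0 were lower in all 3, against 16.9% of all probe sets. The median difference of the 33 genes was 0.93, and it was 0.96, 0.72 and 0.96 in pairs 1, 2 and 3, beside a median of −0.02 over all 41345 probe sets. The genes ordered alike in every pair: across the 33 genes, which are not independent replicates, the differences of 2 pairs correlated at 0.83 to 0.92 (Pearson).

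How many passed a test depended on whether the pairs entered the fit. In limma without the pairs, which follows the unpaired test of the study's methods, 0 of 33 passed an adjusted p under 0.05 in either direction, where 0.00967% of all probe sets were called higher and 0.0% lower. Without adjustment, 10 were higher and 0 lower at p under 0.05, against 0.3% and 0.0605% of all probe sets. Here limma pooled the spread over the array and gave each gene a standard error of 0.63. The methods' t-test also passed 0 of 33, and it passed 0 of all 41345 probe sets. Before adjustment it gave 5 higher and 0 lower at p under 0.05, against 0.193% and 0.075% of all probe sets. Once the replicate number entered as a block, 10 of 33 rose (30.3%, against 0.206% of all probe sets) and 0 fell (0.0242% of all probe sets). Before adjustment, 28 of 33 were higher and 0 lower in that fit at p under 0.05, against 5.21% and 6.22% of all probe sets. By fold alone, 19 of 33 were at least 1.5-fold higher in all 3 pairs (0.716% of all probe sets) and 0 at least 1.5-fold lower in all 3 (0.31%). The mean difference was at least 1.5-fold higher for 23 (1.67%) and at least 2-fold higher for 13 (0.489%).

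**Figure D1:**
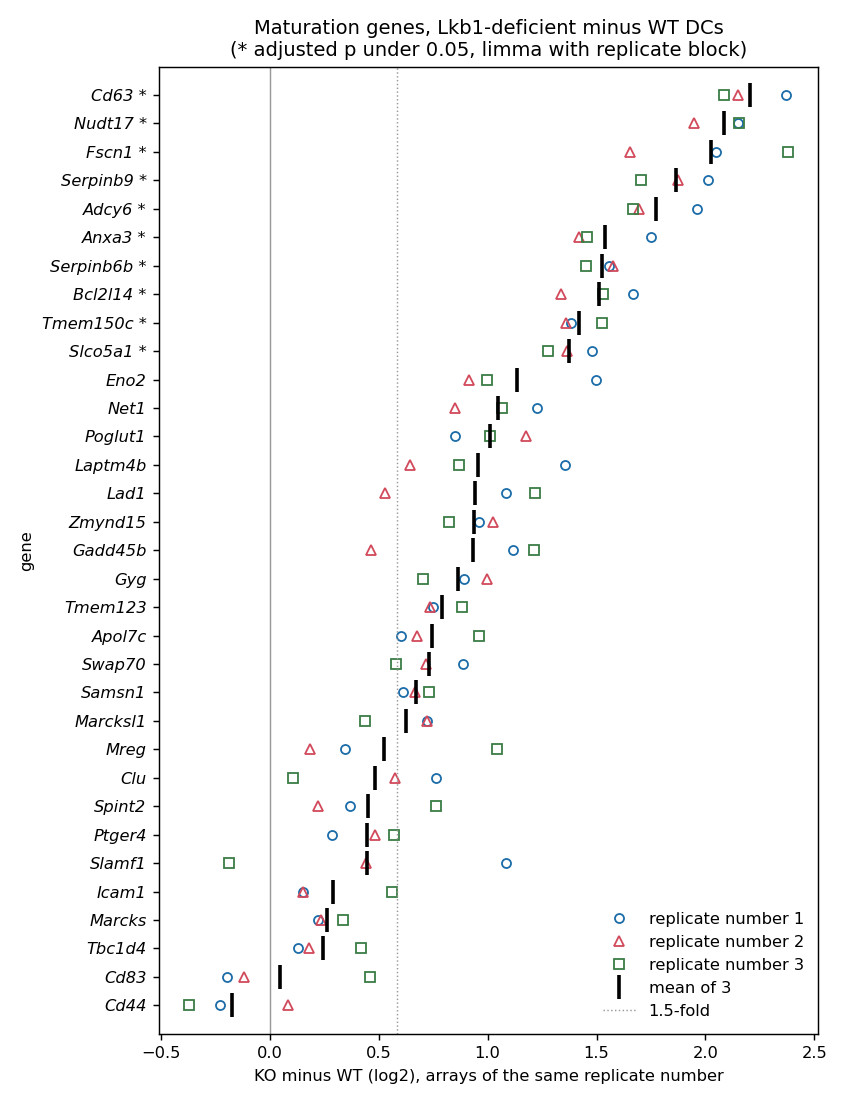
KO minus WT difference of deposited log2 signals for each of the 33 maturation genes (rows, italic), with an open symbol for each replicate number, a bar for the mean of 3 and a dotted line at 1.5-fold. The 10 genes past the blocked limma test, marked with an asterisk, lie at means of 1.37 to 2.20, and only *Cd44*, *Cd83* and *Slamf1* have a pair below 0.

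The stretches before the start sites of the maturation genes were read for short motifs. A window was found for 25 of the 33 genes, 31 windows in all, in RefSeq sequences of build GRCm38.p6, and the 250 bases before each start were searched on both strands. The NF-κB motif GGGANNNNCC was in the window of 4 of 25 genes, against 19.7% of all genes, and the interferon response motif GAAANNGAAA in 2 of 25, against 3.46%. The cyclic AMP response element TGACGTCA was in 1 of 25, against 1.77%, and its shorter form TGACG, which it contains, in 3 of 25, against 19.8%. The AP-1 motif TGANTCA was in 0 of 25, against 7.82%, and the PU.1 motif GAGGAAG in 4 of 25, against 12.0%. A match is a string of letters and not a shown binding site.

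The stretches of 4 of the genes that rose are shown because each holds one of these motifs, written 5′ to 3′ on the gene's own strand. The letters of 1 motif per gene are in capitals, and the PU.1 match of *Cd63* is left in lower case. In *Fscn1* the full cyclic AMP response element lay 45 to 38 bases before the start, and in *Cd63* 2 copies of the shorter form lay within 105 to 87 bases before it. In *Serpinb9* the interferon response motif was on the other strand, 46 to 37 bases before the start, and in *Nudt17* overlapping NF-κB matches on both strands covered bases 112 to 102 before it.
Fscn1 (chr5:142960105-142960354, plus strand): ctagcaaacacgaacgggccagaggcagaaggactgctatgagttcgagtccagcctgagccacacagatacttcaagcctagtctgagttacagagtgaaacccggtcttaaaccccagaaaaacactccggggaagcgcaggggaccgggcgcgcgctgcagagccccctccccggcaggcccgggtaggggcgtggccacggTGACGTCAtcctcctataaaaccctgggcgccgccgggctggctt
Cd63 (chr10:128909095-128909344, plus strand): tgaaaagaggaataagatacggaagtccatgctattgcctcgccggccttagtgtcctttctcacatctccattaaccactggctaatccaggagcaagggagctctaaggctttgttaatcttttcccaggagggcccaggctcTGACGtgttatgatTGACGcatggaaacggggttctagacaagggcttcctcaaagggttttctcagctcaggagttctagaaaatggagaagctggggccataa
Serpinb9 (chr13:33004291-33004540, plus strand): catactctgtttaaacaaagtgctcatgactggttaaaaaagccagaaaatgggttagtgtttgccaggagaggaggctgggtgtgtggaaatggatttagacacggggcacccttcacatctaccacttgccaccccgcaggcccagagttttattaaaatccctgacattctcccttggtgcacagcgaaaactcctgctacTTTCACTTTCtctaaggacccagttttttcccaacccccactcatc
Nudt17 (chr3:96708561-96708810, minus strand): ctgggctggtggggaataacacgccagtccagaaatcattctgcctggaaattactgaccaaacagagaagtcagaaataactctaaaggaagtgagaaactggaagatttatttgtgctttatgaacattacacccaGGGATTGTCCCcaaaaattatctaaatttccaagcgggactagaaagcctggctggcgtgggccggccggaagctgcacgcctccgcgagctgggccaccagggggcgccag

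Of the genes for the cytoskeleton and membrane remodelling, all 8 with a probe set had a positive mean difference, with a median of 0.70. The fascin gene *Fscn1*, whose product bundles actin in the dendrites of mature DCs, was at 10.49, 10.34 and 9.83 in KO, against 8.44, 8.69 and 7.45 in WT. Every KO array lay above every WT array. The mean difference was 2.03, or 4.08-fold (SE 0.16; limma with the replicate block, adjusted p = 0.0334), with single pairs at 3.15-fold to 5.21-fold. *Swap70*, which encodes an actin-binding signalling protein, was at 8.79, 8.78 and 8.20 in KO, against 7.90, 8.06 and 7.62 in WT. Its groups did not overlap either, yet its difference of 0.73 missed the blocked test (limma, adjusted p = 0.125). In all, the KO arrays lay wholly above the WT arrays for 7 of the 33 maturation genes (0.38% of all probe sets): *Fscn1*, *Swap70*, *Cd63*, *Nudt17*, *Serpinb6b*, *Serpinb9* and *Anxa3*.

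The other cytoskeletal members were positive in every pair but missed the blocked test. *Net1*, which encodes a guanine nucleotide exchange factor, had differences of 0.85 to 1.23 over the pairs, and *Lad1*, which encodes the anchoring filament protein ladinin, of 0.53 to 1.22. *Samsn1*, which encodes a signalling adaptor with SH3 and SAM domains, had 0.61 to 0.73. The protein kinase C substrates *Marcksl1* and *Marcks*, which link actin to the membrane, had mean differences of 0.63 and 0.27. *Tbc1d4*, which encodes a Rab GTPase-activating protein of vesicle traffic, had a mean difference of 0.24.

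The 10 surface and membrane proteins ran from −0.17 to 2.20. *Cd63*, which encodes a tetraspanin of late endosomes and exosomes, had the largest mean difference of the 33 genes. It was at 9.19, 8.34 and 7.35 in KO, against 6.82, 6.19 and 5.27 in WT. The lowest KO array was above the highest WT array, and the mean difference was 2.20, or 4.60-fold (SE 0.11; limma with the replicate block, adjusted p = 0.0177). *Tmem150c*, which encodes a membrane protein linked to mechanically activated currents, was at 9.20, 7.72 and 7.16 in KO, against 7.82, 6.36 and 5.63 in WT. Its groups overlapped across numbers, while the pairs stayed within 1.36 to 1.52, and it rose by 1.42 (SE 0.10; limma with the replicate block, adjusted p = 0.0334). *Slco5a1*, which encodes a member of the organic anion transporter family, was at 8.07, 7.46 and 6.59 in KO, against 6.59, 6.10 and 5.31 in WT. WT replicate 1 just reached KO replicate 3, and the gene rose by 1.37 (SE 0.10; limma with the replicate block, adjusted p = 0.0334).

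The remaining 7 surface genes missed the blocked test. *Laptm4b*, which encodes a lysosomal membrane protein, differed by 0.64 to 1.36 over the pairs, and *Tmem123*, which encodes the cell surface mucin porimin, by 0.74 to 0.88. *Ptger4*, which encodes the prostaglandin E2 receptor EP4, differed by 0.29 to 0.57, and *Icam1*, the adhesion ligand of the integrin LFA-1, by 0.15 to 0.56. The other 3 did not keep one sign. *Cd83*, which encodes a membrane protein that keeps MHC class II on the surface of mature DCs, differed by −0.20, −0.12 and 0.46 in pairs 1, 2 and 3. *Cd44*, which encodes the hyaluronan receptor, differed by −0.23, 0.08 and −0.37, and *Slamf1*, a self-binding receptor of immune cells, by 1.08, 0.44 and −0.19. *Slamf1* was dim, at 5.79, 4.41 and 5.22 in KO, against 4.71, 3.97 and 5.40 in WT, and it lay above the array median on 7 of the 8 arrays.

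Among genes of enzymes and metabolism, all 5 with a probe set were at least 1.5-fold higher in every pair, with a median of 1.14. *Nudt17*, which encodes a hydrolase of the Nudix family, was at 8.71, 8.18 and 6.94 in KO, against 6.56, 6.23 and 4.78 in WT. The groups did not overlap, and the mean difference was 2.08, or 4.24-fold (SE 0.11; limma with the replicate block, adjusted p = 0.0177). *Adcy6*, which encodes an adenylate cyclase that makes cyclic AMP, was at 9.14, 7.20 and 6.73 in KO, against 7.18, 5.50 and 5.06 in WT. Replicate 1 was high in both groups, so that WT replicate 1 lay above KO replicate 3, and within pairs the gene rose by 1.77 on average (SE 0.11; limma with the replicate block, adjusted p = 0.0305).

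*Gyg*, which encodes the glycogenin that primes glycogen, was at 10.27, 9.37 and 8.11 in KO, against 9.38, 8.37 and 7.41 in WT. Its pairs lay at 0.70 to 1.00 and its groups overlapped (limma with the replicate block, adjusted p = 0.0958). *Eno2*, which encodes an enolase of glycolysis, had a mean difference of 1.14, and *Poglut1*, which encodes an enzyme that adds glucose to Notch receptors, of 1.01. Neither passed (limma with the replicate block, adjusted p = 0.10 and 0.0740).

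Both clade B serpins among the 3 protease inhibitors rose. *Serpinb9*, whose product blocks granzyme B, was at 10.16, 9.33 and 8.30 in KO, against 8.15, 7.45 and 6.60 in WT. *Serpinb6b*, which encodes a related intracellular inhibitor, was at 10.06, 9.88 and 8.96 in KO, against 8.51, 8.31 and 7.51 in WT. For both genes the lowest KO array lay above the highest WT array. *Serpinb9* rose by 1.86, or 3.64-fold (SE 0.11; limma with the replicate block, adjusted p = 0.0305), and *Serpinb6b* by 1.53, or 2.88-fold (SE 0.10; adjusted p = 0.0316 in the same limma fit). *Spint2*, which encodes a membrane-bound inhibitor of serine proteases, had pair differences of 0.22 to 0.76.

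In the RefSeq annotation these 2 serpin genes lie side by side on chromosome 13, with 0 protein-coding genes between them. The other 13 *Serpinb* genes there with a probe set of their own were looked up after the values of these 2 were seen. They ran from −0.20 to 1.46, and 0 passed the blocked test in limma. Before adjustment, 3 were higher and 0 lower in that limma fit at p under 0.05, against 5.21% and 6.22% of all probe sets. The top of that range was *Serpinb1a*, at 6.96, 7.04 and 7.59 in KO, against 5.14, 4.95 and 7.13 in WT. Members of this family are close in sequence, and cross-hybridisation between them was not tested.

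The 7 genes of survival, stress and other roles all had positive pairs throughout, with a median of 0.93. *Bcl2l14*, which encodes a relative of the apoptosis regulator Bcl-2, was at 7.83, 6.94 and 5.60 in KO, against 6.16, 5.61 and 4.07 in WT. The genotypes overlapped across numbers, and the gene rose by 1.51 (SE 0.11; limma with the replicate block, adjusted p = 0.0334). *Anxa3*, which encodes an annexin that binds membranes, was at 9.75, 9.58 and 8.62 in KO, against 8.00, 8.16 and 7.17 in WT. No WT array reached a KO array, and the gene rose by 1.54 (SE 0.12; limma with the replicate block, adjusted p = 0.0334).

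*Gadd45b*, which encodes a stress-induced activator of MAP kinase signalling, was at 10.40, 11.11 and 9.57 in KO, against 9.28, 10.65 and 8.36 in WT. Its pair differences were uneven, at 1.12, 0.46 and 1.21, and it missed the blocked test (limma, adjusted p = 0.180). *Apol7c*, of the apolipoprotein L family, was at 10.99, 11.19 and 10.19 in KO, against 10.39, 10.52 and 9.23 in WT, with pair differences of 0.60, 0.68 and 0.96 (limma with the replicate block, adjusted p = 0.134). *Zmynd15*, which encodes a zinc finger repressor, had pair differences of 0.82 to 1.03. *Mreg*, whose product acts in organelle transport, and *Clu*, which encodes the chaperone clusterin, had mean differences of 0.53 and 0.48.

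The calls rest on all 3 pairs. With any 1 pair left out, 0 of 33 passed the blocked test, and so did 0 of all 41345 probe sets. That count thus says nothing particular about the maturation genes. Before adjustment, at p under 0.05, 24, 25 and 26 were higher without pair 1, 2 and 3, against 3.41%, 4.18% and 4.16% of all probe sets. With 16 added to every linear signal, which dampens dim probe sets, only *Tmem150c* and *Serpinb6b* passed the blocked test. In that setting 12 of all 41345 probe sets passed.

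Markers of other cells were read beside these results, and their part in them was not tested. Of 12 marker lists, none had a gene past the blocked test except the list for plasmacytoid DCs, where *Cox6a2* rose by 1.69 while the other 6 genes lay between −0.05 and 0.45. The average of the 7 plasmacytoid DC genes was 6.60 to 6.72 in KO and 6.00 to 6.46 in WT, so every KO array lay above every WT array. That average includes *Cox6a2*, and taken singly only *Cox6a2* of the 7 had every KO array above every WT array. Before adjustment, at p under 0.05 in the blocked limma fit, 3 of the 76 genes of the remaining lists were higher and 8 lower. Over all probe sets the shares were 5.21% and 6.22%. For CD8+ conventional DCs the median difference of 7 markers was −0.18, and for CD11b+ conventional DCs that of 8 markers was −0.46, with *Cd4* at −1.15 and *Dtx1* at −1.14, neither past the test (limma with the replicate block, adjusted p = 0.164 and 0.130). At an unadjusted p under 0.05 in the same limma fit, 5 of the 8 CD11b+ markers were lower, against 6.22% of all probe sets. The average of the CD11b+ list was 7.37 to 8.86 in KO and 7.63 to 9.40 in WT.

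**Figure D2:**
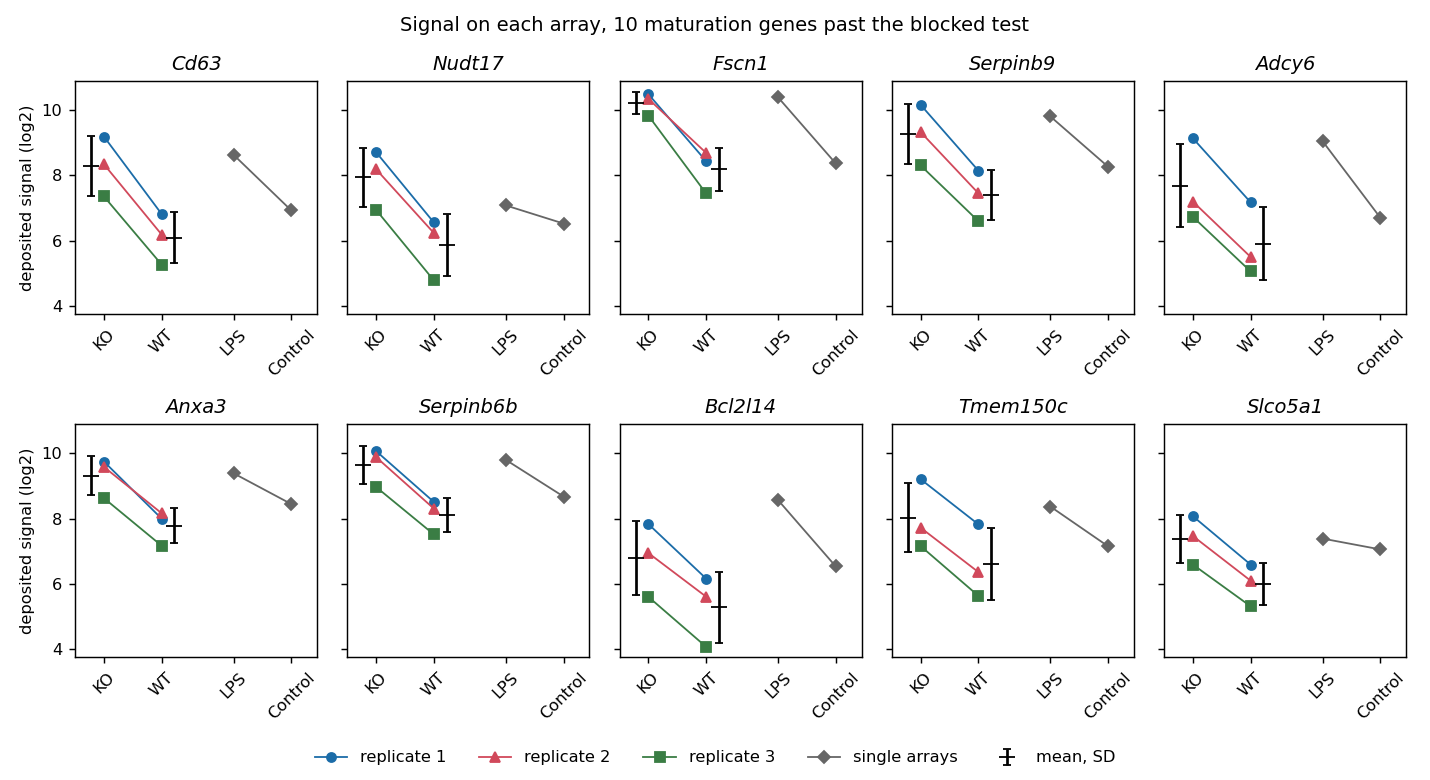
Deposited log2 signal on every array for the 10 maturation genes past the blocked limma test, with lines joining KO and WT arrays of one replicate number, black bars for the mean and SD (n = 3) and grey diamonds for the single LPS and Control arrays. All 30 lines between KO and WT slope down to WT, and for each of the 10 genes the LPS value lies above the Control value.

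The second comparison asked what LPS did to the same genes in wild type mice. LPS and Control values were equal to the last digit for 54.2% of the 33649 probe sets on both arrays, and the sources used here do not say which step made them so. Of the 33 maturation genes, 29 were higher with LPS and 3 lower, against 22.5% and 23.3% of those probe sets, and 1, *Cd83*, was listed at the same value of 10.11 on both arrays. At least 1.5-fold higher were 19 of 33 (57.6%, against 3.63% of the probe sets on both arrays), and at least 1.5-fold lower were 2 (3.95%). The median difference was 0.80, beside 0 over all probe sets on both arrays and −0.01 over those with unequal values.

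The largest difference was that of *Slamf1*, at 7.95 with LPS against 4.35 in Control, or 12.1-fold. With 16 added to the linear signals its difference was 2.85 in place of 3.60. *Adcy6* followed, at 9.04 with LPS against 6.70 in Control, or 5.06-fold. *Bcl2l14* was at 8.56 with LPS against 6.53 in Control, and *Fscn1* at 10.39 with LPS against 8.36 in Control, both close to 4-fold. These 4 genes belong to 4 of the 5 role groups.

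Among the other genes at least 2-fold higher, *Cd63* was at 8.63 with LPS against 6.92 in Control, and *Gyg* at 9.30 with LPS against 7.69 in Control. *Serpinb9* was at 9.80 with LPS against 8.27 in Control, and *Serpinb6b* at 9.80 with LPS against 8.67 in Control. *Gadd45b* was at 11.25 with LPS against 9.95 in Control, and *Tmem150c* at 8.37 with LPS against 7.15 in Control. In all, 10 of 33 were at least 2-fold higher with LPS (1.63% of the probe sets on both arrays), where *Gyg*, *Gadd45b* and *Slamf1* were genes without a call in the Lkb1 comparison. The other 9 genes at least 1.5-fold higher with LPS had log2 differences between those of *Icam1*, at 0.68, and *Marcksl1*, at 0.99, with *Anxa3* at 0.94, *Poglut1* at 0.90, *Net1* at 0.87, *Ptger4* at 0.80 and *Eno2* at 0.71.

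At the low end stood *Apol7c*, at 8.77 with LPS against 9.97 in Control, or 0.434-fold, and *Cd44*, at 7.42 with LPS against 8.01 in Control, or 0.666-fold. *Cd44* was near the limit, and its difference of −0.59 was −0.55 with 16 added, short of 1.5-fold. *Laptm4b* was also lower, at 7.98 with LPS against 8.35 in Control. Of the 10 genes called in the blocked Lkb1 comparison, *Nudt17* and *Slco5a1* stayed under 1.5-fold with LPS, at 0.55 and 0.33 on the log2 scale.

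The LPS array also differed in its DC markers. Over the probe sets on both arrays, 3.95% were at least 1.5-fold lower with LPS and 3.63% at least 1.5-fold higher. All 7 markers of CD8+ conventional DCs were at least 1.5-fold lower with LPS, averaging 5.63 with LPS and 8.00 in Control, and 4 of 6 general DC markers were, among them *Itgax* at 7.58 with LPS and 10.31 in Control. Neutrophil markers averaged 4.33 with LPS and 3.79 in Control, with 4 of 9 at least 1.5-fold higher. The part of these shifts in the values of the maturation genes was not tested.

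The 2 comparisons share no array, so their values can be set side by side. At least 1.5-fold higher in both were 16 of the 33 maturation genes (0.791% of the probe sets on all 8 arrays), with the Lkb1 value taken as the mean of 3 pairs. Another 7 were so only with Lkb1 deletion (0.725% of those probe sets), namely *Swap70*, *Lad1*, *Laptm4b*, *Slco5a1*, *Nudt17*, *Apol7c* and *Zmynd15*. Only with LPS were 3 (2.84%), namely *Icam1*, *Slamf1* and *Ptger4*, and 7 were at least 1.5-fold higher in neither (95.6%). Shares over probe sets include those without a symbol, whereas each member stands for a gene. Over genes, with 1 probe set each, the share higher in both was 1.05% in place of 0.791%. Likewise it was 1.12% in place of 0.716% for 1.5-fold in all 3 pairs, and 4.11% in place of 3.63% for LPS. As a description over genes, which share arrays and are not independent, the 2 differences correlated at a Pearson r of 0.43 (Spearman 0.50) over the 33 genes, and at 0.62 (Spearman 0.60) without *Slamf1*. Over all 22180 genes the Pearson r was 0.39 and the Spearman 0.21, and over the 10527 of them with unequal LPS and Control values they were 0.45 and 0.33. No gene with a large LPS effect was left out of these, as *Slamf1* was for the 0.62, so that value has no like one over all genes.

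**Figure D3:**
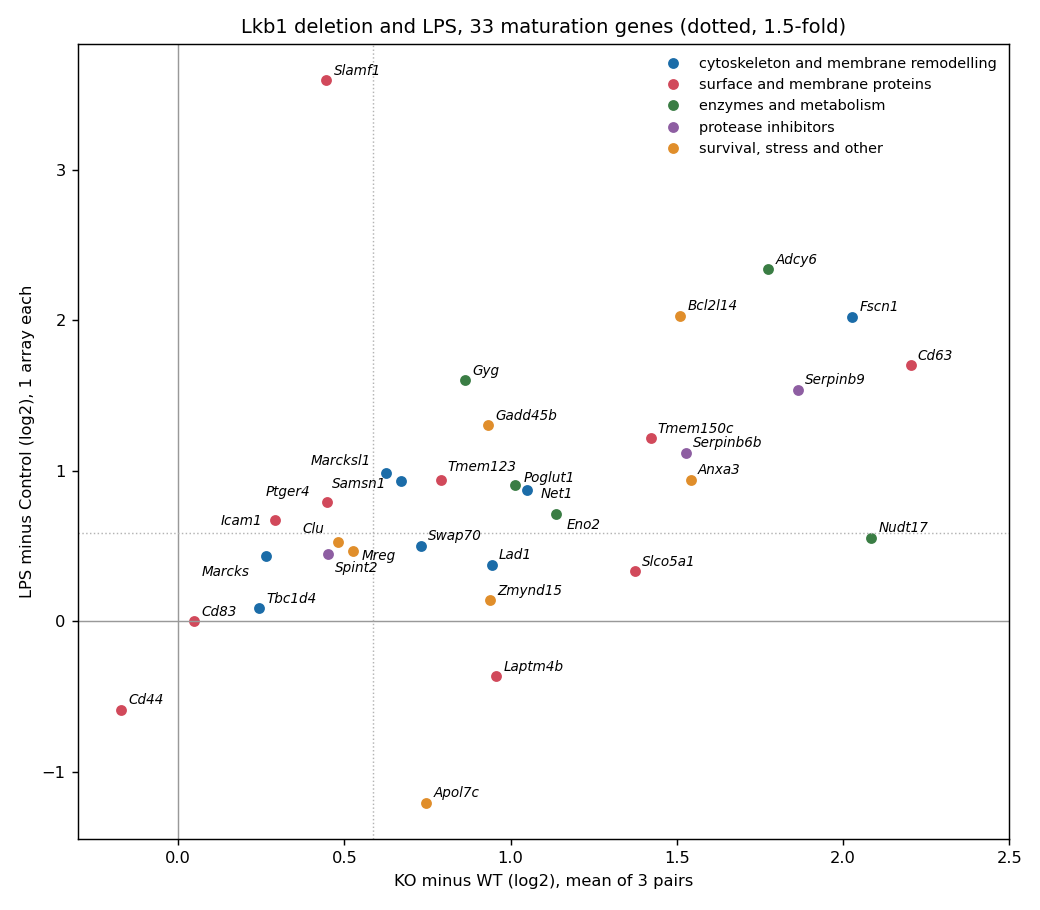
KO minus WT (horizontal, mean of 3 pairs, log2) against LPS minus Control (vertical, 1 array each, log2) for 33 maturation genes, coloured by role, with dotted lines at 1.5-fold. The 16 genes in the upper right field are at least 1.5-fold higher in both, *Slamf1* stands alone at 0.45 and 3.60, and *Apol7c* and *Laptm4b* lie right of 0 and below it.

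The difference between the effects was tested in limma over all 8 arrays, on the assumption that the 2 single arrays have the spread of the replicated ones. None of the 33 passed (0.00297% of the probe sets tested), and at an unadjusted p under 0.05 (0.279% of the probe sets tested) there was 1, *Slamf1*, whose LPS effect exceeded its Lkb1 effect by 3.15. With the replicate number as a block and LPS and Control as a pair of their own, 3 passed, against 0.981% of the probe sets tested. These were *Slamf1*, at 3.15 (limma, adjusted p = 0.0390), *Apol7c*, at −1.95 (limma, adjusted p = 0.0199), and *Nudt17*, at −1.53 (limma, adjusted p = 0.0328). For *Nudt17* the negative value means a smaller rise with LPS, at 0.55 against 2.08 with Lkb1 deletion. For *Apol7c* it means opposite directions, at −1.20 with LPS against 0.75 with Lkb1 deletion. In the blocked fit, the difference of LPS and Control was judged by the spread of the KO and WT pairs alone. No label pairs LPS with Control, and no replicate checks that their difference varies like those pairs.

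The rest of the maturation programme was read from lists of genes outside the 33, also chosen with earlier results of these data known. Over all probe sets, the blocked fit called 0.206% higher. Over the probe sets on both the LPS and Control arrays, 3.63% were at least 1.5-fold higher with LPS. Of 11 costimulatory genes, 3 rose with Lkb1 deletion in the blocked fit, and 9 were at least 1.5-fold higher with LPS. The 3 were *Cd200*, which encodes an inhibitory ligand, at 1.92, and the OX40 ligand and receptor genes *Tnfsf4* and *Tnfrsf4*, at 2.60 and 1.46. Of 7 chemokine and receptor genes, 1 rose, *Ccl22*, which encodes a ligand of CCR4, at 2.49, and 6 were at least 1.5-fold higher with LPS. Of 14 NF-κB genes, 1 rose, the feedback inhibitor *Tnip3*, at 1.81, and 8 were at least 1.5-fold higher with LPS. The Lkb1 counts rest on an adjusted test and the LPS counts on a fold between single arrays, so their sizes cannot be compared. At an unadjusted p under 0.05 in the blocked limma fit, 8 of the 11 costimulatory genes were higher with Lkb1 deletion. So were 4 of the 7 chemokine and receptor genes and 5 of the 14 NF-κB genes, against 5.21% of all probe sets. In these 3 lists 0 were lower, against 6.22%.

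Of 29 other maturation genes, 4 rose with Lkb1 deletion, namely the cytokine signalling inhibitor *Socs2* at 2.30, *Ankrd33b* at 1.43, the interleukin 12 subunit gene *Il12b* at 1.33 and the cell cycle inhibitor *Cdkn1a* at 1.15. At an unadjusted p under 0.05 in the blocked limma fit, 16 of these 29 were higher and 1 lower, against 5.21% and 6.22% of all probe sets. With LPS, 20 of the 29 were at least 1.5-fold higher and 2 lower, against 3.63% and 3.95% of the probe sets on both arrays. *Il12b* was among the lower ones, at −0.80. Of 19 genes that maturing DCs are known to lower, 0 passed with Lkb1 deletion in the blocked limma fit, with a median of 0.04. That fit called 0.206% of all probe sets higher and 0.0242% lower. Before adjustment, 4 of the 19 were higher and 4 lower in it at p under 0.05, against 5.21% and 6.22% of all probe sets. *Cd209a* and *Clec4a4* of this list are also among the CD11b+ conventional DC markers, so the 2 lists are not separate observations. At least 1.5-fold lower with LPS were 10 of the 19 (3.95% of the probe sets on both arrays), with a median of −0.63. *Cd209a*, which encodes a lectin of resting DCs, was at 10.82, 8.94 and 8.07 in KO, against 11.14, 9.83 and 8.52 in WT, and at 3.72 with LPS against 9.59 in Control. Whether these lists differ from each other was not tested.

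**Figure D4:**
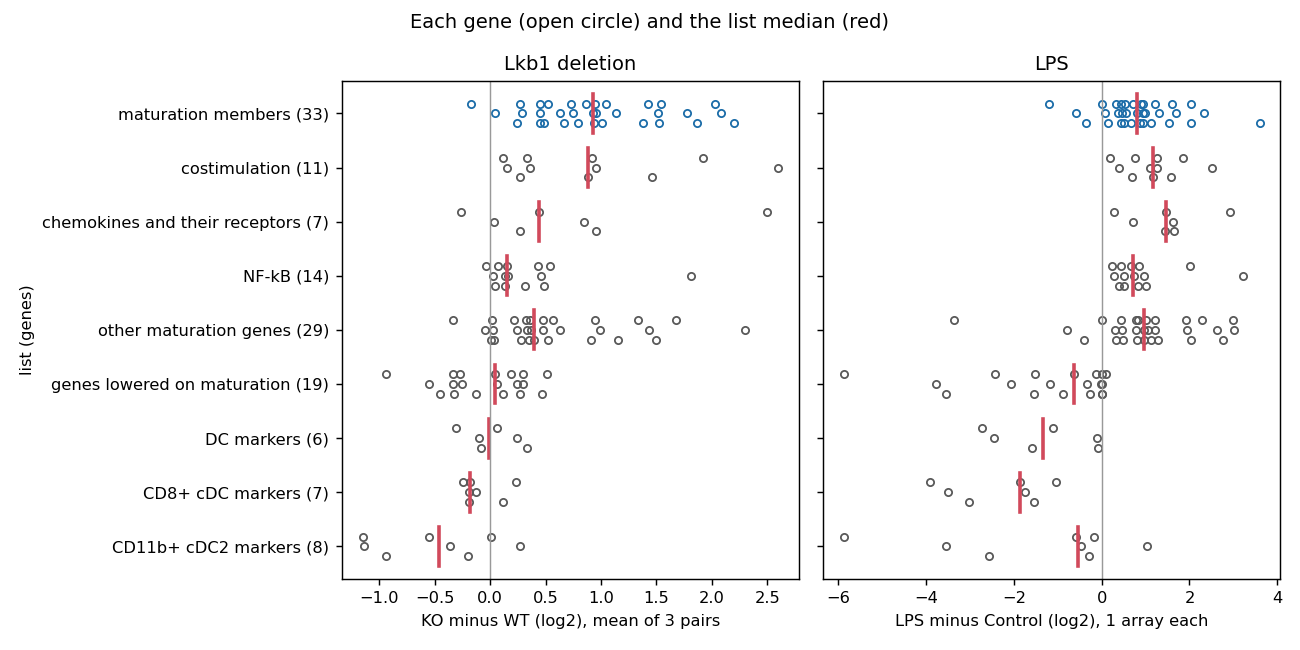
Log2 difference of each gene (open circles) and list median (red bar) for the 33 maturation members (blue) and 8 further lists, as KO minus WT on the left and LPS minus Control on the right. The members' medians are 0.93 and 0.80, and the list of genes lowered on maturation has medians of 0.04 and −0.63. *Cd209a* and *Clec4a4* are in both that list and the CD11b+ list.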

How the data were processed

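Spleen DC expression was measured on 8 Affymetrix arrays (Mouse Gene 2.0 ST), 3 of KO, 3 of WT, 1 of LPS and 1 of Control. The authors deposited 1 log2 value for each of 41345 probe sets, 33649 of them also on the LPS and Control arrays. Their methods name GeneSpring, and the submitters' processing notes name MAS5 without a role. How probes were summarised and arrays normalized is not stated in the sources used here, and values were used as deposited, from 0.15 to 13.39. An unstated scaling of arrays in separate sets would move levels compared across those sets.

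Symbols came from the array's annotation: 23521 probe sets had 1, 1820 several and 16004 none, and of those with 1, 23328 matched the RefSeq table of GRCm38.p6 by gene number, with 0 symbols that differed. No dim probe set was left out.

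KO and WT were compared with limma 3.58.1 in R 4.3.3 (lmFit and eBayes, Benjamini-Hochberg adjustment over all 41345 probe sets, threshold 0.05), without a block, as the methods name an unpaired test, and again with the replicate number as a block. Deviations from the genotype means correlated at 0.85, 0.80 and 0.74 between arrays of the same number and at −0.61 to −0.13 between others, so the numbers pair the arrays by the threshold of 0.1. This comes from the values, not from a label. The exact permutation test of 3 arrays against 3 cannot go below p = 0.1 and was not used. LPS and Control were compared by fold, at 1.5-fold, and the difference of effects in limma over 8 arrays. The limma fits of KO and WT, with and without the block, were also run on simulated arrays with known changes and an effect per replicate number. The simulation gave every probe set the same noise, so it checks the code and not the calls in these data.

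The members and gene lists were chosen with earlier results of these data known. Every member is named, and array values are given in full for those called in either fit, separated by group, or at least 2-fold changed by LPS. From other lists, up to 4 called genes are named. Alternatives were quantile normalization, median centring, 16 added to the linear value, a filter on dim probe sets, only probe sets on all 8 arrays, the mean of a gene's probe sets, the methods' t-test and leaving out arrays. Motif searches and 5 settings of the block were added after seeing the data.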

Additional observations from a re-analysis of the deposited data

Results flagged for a closer look

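*Laptm4b* and *Apol7c* were higher in KO than in WT in all 3 pairs but lower with LPS, at −0.36 and −1.20 (LPS minus Control, log2, 1 array each). The difference of the effects was −1.32 for *Laptm4b* and −1.95 for *Apol7c*. Tests of it assume that the single LPS and Control arrays vary like the replicated ones, which no replicate checks. In limma over 8 arrays neither passed (adjusted p = 1 for both). With the replicate number as a block and LPS and Control as a pair, *Apol7c* passed (limma, adjusted p = 0.0199) and *Laptm4b* did not (limma, adjusted p = 0.154).

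The probe set shared by *Nup62*, *Il4i1* and *Il4i1b*, which enters no count, was higher in KO than in WT by 0.50, 0.62 and 0.65 in pairs 1, 2 and 3, with a mean of 0.59 (limma with the replicate block, adjusted p = 0.153). Which of its genes gave the signal cannot be told apart.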

How the results depend on the processing

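Of the 33 maturation genes, 0 were higher at an adjusted p under 0.05 in limma without a block, with the methods' t-test and with each array left out. With the replicate number as a block this count was 10, with or without quantile normalization, and the same 10 genes passed. It was 2 with the block and 16 added to the linear value, where 12 of all 41345 probe sets passed. It was 16 with the block and dim probe sets left out, where 207 of the 20672 probe sets tested passed. With the block and any 1 pair left out (fewer arrays) it was 0, and 0 of all 41345 probe sets passed. None of these settings called any of the 33 genes lower. The median difference of 0.93 was 0.61 to 1.26 with 1 array left out (0.61 without KO replicate 1 and without WT replicate 3), while that of all probe sets ran from −0.35 to 0.31, and 0.81 to 0.89 with a whole pair left out.

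With LPS, the counts of 19 genes at least 1.5-fold higher and 2 lower became 21 and 1 after quantile normalization, 18 and 1 with 16 added, and 10 and 1 at 2-fold. The LPS effect differed from the Lkb1 effect for 0 genes without the block and for 3 with the replicate block and LPS and Control as a pair. The cause of the other changes was not tested. No replicate checks the LPS arrays, and signal over background was not analysed here.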
